A study of Mus musculus with 9 samples.

Results

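The genes described here build, drive and restrain the contraction of smooth muscle, together with 3 genes that mark the interstitial cells of Cajal, the pacemaker cells of the gut wall. Members were chosen by name from the gene table: 34 genes of 21959, of which 31 belong to smooth muscle and 3 (Kit, Ano1 and Etv1) to the pacemaker cells. Each of the 34 had enough reads to be tested, among 14921 tested genes.

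Smooth muscle of the colon wall lies in a circular and a longitudinal layer and in a thin sheet under the mucosa. Calcium that enters through L-type channels or leaves the internal store activates myosin light chain kinase, and phosphorylated myosin then pulls on actin filaments that are anchored in dense bodies and at the membrane. Nitric oxide relaxes the cell by way of guanylate cyclase, cyclic GMP and a cyclic GMP-dependent kinase. Many contractile genes are switched on by serum response factor, which binds a short DNA element called the CArG box, and its partner myocardin. Interstitial cells of Cajal lie among the muscle fibres and set the rhythm of slow waves, and they depend on the receptor Kit and the chloride channel Ano1.

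Poly-A RNA was measured in the colon of wild-type mice in 3 groups of 3 libraries. Blank mice received no treatment, Model mice received dextran sulfate sodium (DSS), a polymer that injures the colon lining and causes colitis, and CDs mice received DSS and carbon dots, nanometre-sized carbon particles, made from lotus node charcoal. The series description calls the replicates biological; for strain, sex, age, doses and schedules the sources used here give nothing. Colon was the stated tissue, so each value averages all cells of the wall, and fewer cells of a type cannot be told apart from less RNA per cell.

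Libraries held 13868864 to 19940300 counted reads, and 3 reads, taken here as the limit of detection, corresponded to between 0.142 and 0.221 CPM (reads scaled to the size of the library). Some libraries also held transcripts typical of other organs. Prostate and seminal vesicle genes summed to 4214 CPM in Blank 2 and 567 CPM in Blank 3, against 84.0 to 288 CPM in the other 7, and pancreatic acinar genes summed to 9573 CPM in Model 1, 79890 CPM in Model 3 and 389 CPM in CDs 1, against 27.0 to 230.5 CPM in the other 6. Counts of members are therefore also given without these libraries. A gene is named as called when edgeR's quasi-likelihood test, adjusted over all tested genes, gave it a Benjamini-Hochberg p under 0.05, and fold changes are log2 ratios of group means with their standard error (SE). Among the members themselves CDs 1 stood apart: it was the lowest of the 3 CDs libraries for 31 of 31 smooth muscle genes, and for 40.9% of all tested genes.

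Promoters are shown for the 3 members whose windows hold a CArG box and for Acta2, the most abundant member, which holds only looser matches. RefSeq windows on GRCm38.p6, reaching from 250 bases before to 50 bases after the transcript start, were matched for 30 of the 34 members; Actg2, Tagln, Myh11 and Myocd were not among them. A CArG box, here CC, then 6 bases that are A or T, then GG on either strand, lay in the window of 3 of 27 smooth muscle genes (11.1%), against 488 of 27025 genes (1.81%) in all. These were Myl9, Srf itself, which held 2, and Vcl. A search that let 1 of the 6 core bases be G or C was added after the data were seen. It matched 5 of 27 smooth muscle genes (18.5%), Acta2 with 2 boxes, Cacna1c, Hspb6, Myl9 and Synm, against 2620 of 27025 genes (9.70%). The lines give the 250 bases before the start on the strand of the gene, with the boxes of either search in capitals: chr19:34255374-34255623 on the minus strand for Acta2, chr2:156775214-156775463 on the plus strand for Myl9, chr17:46556163-46556412 on the minus strand for Srf and chr14:20929148-20929397 on the plus strand for Vcl.
Acta2: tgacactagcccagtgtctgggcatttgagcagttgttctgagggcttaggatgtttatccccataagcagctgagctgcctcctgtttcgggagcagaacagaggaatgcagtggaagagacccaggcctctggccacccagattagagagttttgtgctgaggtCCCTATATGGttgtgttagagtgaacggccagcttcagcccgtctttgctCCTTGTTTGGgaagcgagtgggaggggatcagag
Myl9: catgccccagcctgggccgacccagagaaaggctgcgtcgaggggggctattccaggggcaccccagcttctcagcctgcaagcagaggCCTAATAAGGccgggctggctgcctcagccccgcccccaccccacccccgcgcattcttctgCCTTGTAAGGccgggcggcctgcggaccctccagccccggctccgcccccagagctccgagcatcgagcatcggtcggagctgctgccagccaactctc
Srf: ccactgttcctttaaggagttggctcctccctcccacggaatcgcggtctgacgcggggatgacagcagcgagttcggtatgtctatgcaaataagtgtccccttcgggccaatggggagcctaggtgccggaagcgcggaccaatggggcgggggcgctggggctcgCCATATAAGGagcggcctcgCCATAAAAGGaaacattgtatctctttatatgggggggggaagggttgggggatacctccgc
Vcl: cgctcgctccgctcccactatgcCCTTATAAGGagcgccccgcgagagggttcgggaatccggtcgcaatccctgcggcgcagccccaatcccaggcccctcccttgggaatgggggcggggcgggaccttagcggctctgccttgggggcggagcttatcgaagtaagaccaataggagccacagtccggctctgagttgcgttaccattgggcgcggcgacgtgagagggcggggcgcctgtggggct
A box is a match of letters and was not measured as a bound site. Of the 4 genes Vcl was called higher in Model versus Blank, and Acta2, Myl9 and Srf were not called.

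Contractile genes were among the most abundant transcripts of untreated colon. On the per-length scale (FPKM, reads scaled to gene length and library total) Acta2, the smooth muscle alpha-actin (ENSMUSG00000035783, chromosome 19, 34218490 to 34232990 in the deposited coordinates, for which the sources used here name no build), led the 31 genes in each group. It ranked 69 among all genes in Blank, with means of 357 ± 60.8 FPKM in Blank, 405 ± 47.9 in Model and 546 ± 164 in CDs (SD, n = 3). Myl9, the regulatory light chain of smooth muscle myosin, followed at 303, 309.8 and 433 FPKM, and Actg2, the gamma-actin typical of visceral muscle, at 296, 213 and 393 FPKM. In Blank the mean of Myl9 lay within 1 SD of that of Acta2 and the mean of Actg2 just beyond it, and Myl9 and Actg2 lay within 1 SD of each other. At the other end in Blank stood Ryr2, the store release channel, at 0.229 FPKM, the transcription factor Myocd at 0.917 FPKM, and Pln, the store pump inhibitor phospholamban, at 1.10 FPKM; Myocd lay within 1 SD of Pln.

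Tagln, which encodes the abundant actin-binding protein transgelin, was listed with few reads, 36 to 102 per library, and ranked 25 of the 31 genes in Blank at 2.23 FPKM. The reason was not tested. Its deposited span overlaps that of Pcsk7 on the opposite strand by 108 bases, and 8 of the 34 members overlap another gene in the deposited coordinates. Synm lies wholly within Ttc23, Pln within Cep85l and Kcnmb1 within Kcnip1, each on the opposite strand, and whether reads were counted by strand was not stated in those sources. Values of these 8 genes (also Vcl, Cacna1c, Prkg1 and Hspb6) are therefore uncertain to that extent. The longest identical stretch between the Acta2 and Actg2 transcripts was 29 bases in GENCODE release M21. It was 65 bases for Myh11 and Myh9, 47 for Acta2 and Actb and 38 for Actg2 and Actc1. For Acta2 and for Actg2 against Acta1 it was 29, for Acta2 and Actc1 23, and for Tpm1 and Tpm2 17.

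The first comparison, Model versus Blank, asked which of these genes differed in DSS-treated colon. Of the 31 smooth muscle genes 15 rose and 0 fell, against 24.5% of all tested genes called higher and 19.6% called lower. Among them were 4 of 5 genes of calcium and potassium handling and 4 of 4 of the nitric oxide and cyclic GMP pathway, beside 2 of 9 thin filament and 0 of 3 myosin genes. Shares were not tested against each other. The median log2 fold change of the 31 was 0.31, beside -0.03 over all tested genes. The CPM ranges of Model and Blank were apart for 15 genes in the higher direction, the same 15, and for 2, Actg2 and Pln, in the lower direction. Of all tested genes 30.0% were apart in the higher direction and 61.0% in either.

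**Figure D1:**
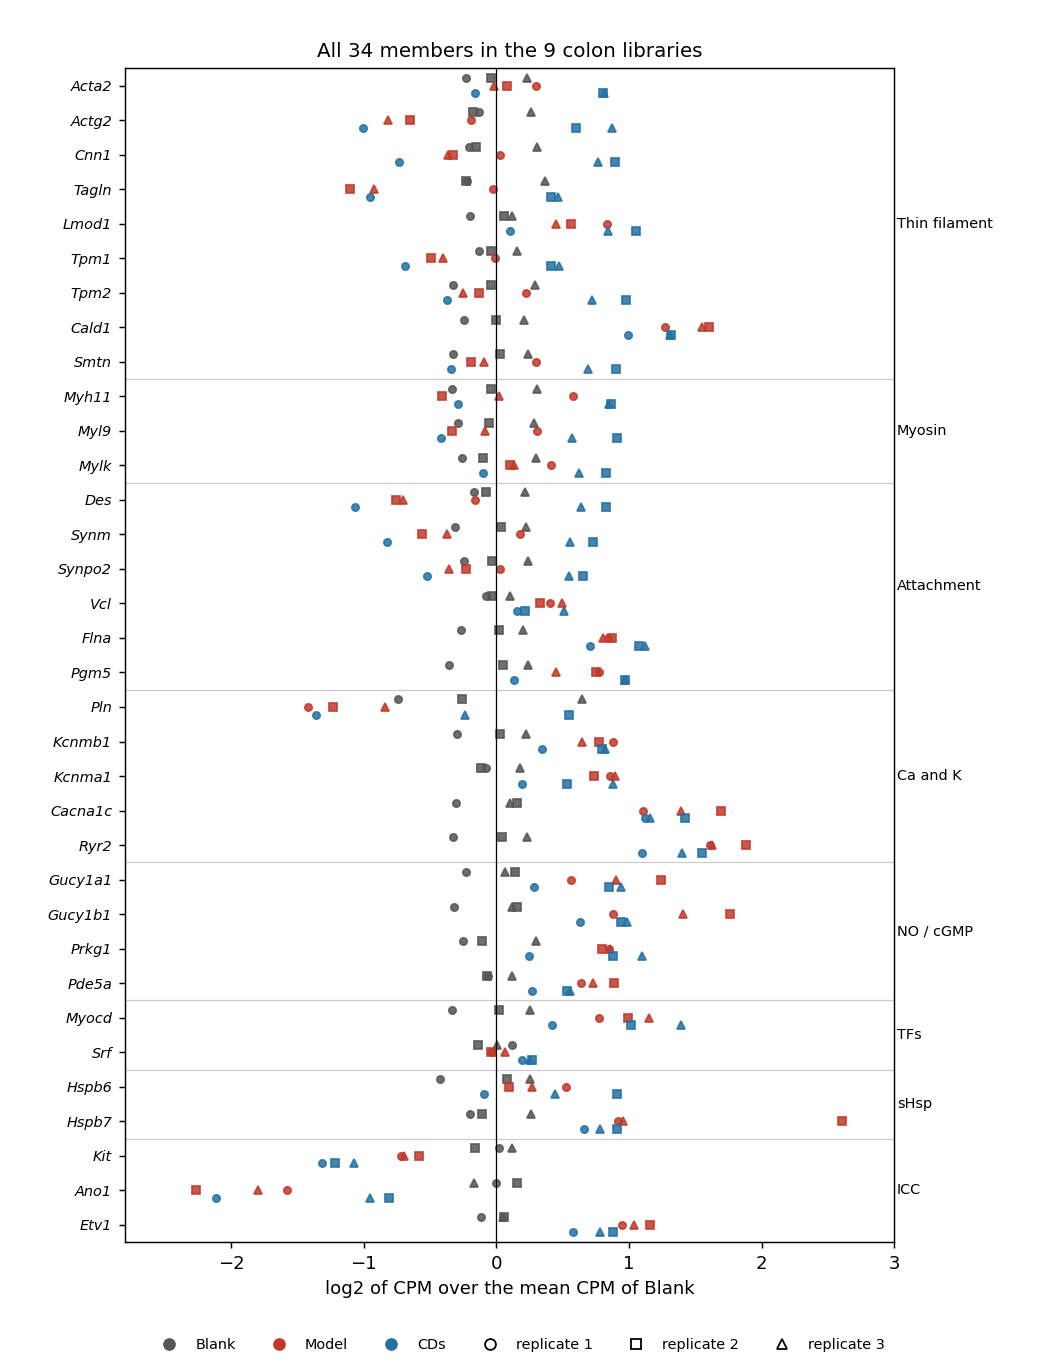
Each point is 1 library, placed by the log2 of its CPM over the mean CPM of Blank, for the 34 members in order of role; colours mark Blank, Model and CDs and shapes mark replicates 1 to 3. For 31 of 31 smooth muscle genes the circle of CDs 1 lies to the left of the other CDs points, and Cacna1c, Ryr2 and Cald1 show both DSS groups to the right of Blank.

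Among the thin filament genes the actin-binding regulator Cald1 (caldesmon; ENSMUSG00000029761, chromosome 6, 34575435 to 34752408) differed most. It had 323, 380.3 and 442 CPM in Blank, 920, 1160 and 1118 in Model and 759, 949 and 945 in CDs, for replicates 1 to 3 in that order here and throughout. The lowest DSS-treated library, CDs 1, was above the highest Blank library. In Model versus Blank the rise of Cald1 was 2.79-fold, a log2 fold change of 1.48 ± 0.17 (SE) with an adjusted p of 4.67e-04 (edgeR). Cald1 also has forms made outside muscle, which a gene-level count does not separate. Lmod1 (leiomodin), which starts new actin filaments, rose less, by 0.62 ± 0.22 (SE) on the log2 scale with an adjusted p of 0.0481. It had 43.2, 51.6 and 53.9 CPM in Blank, 88.2, 73.3 and 67.8 in Model and 53.2, 103 and 88.9 in CDs. The call of Lmod1 was lost in 7 of the 9 fits that left out 1 library, those without any 1 of the Blank or Model libraries or without CDs 3, at adjusted p from 0.0558 to 0.134.

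The other 7 thin filament genes and the 3 myosin genes did not pass the test in Model versus Blank. Acta2, the most abundant, had 689.5, 788 and 951 CPM in Blank, 996, 856 and 799 in Model and 724, 1415 and 1418 in CDs, a log2 fold change of 0.13 ± 0.26 (SE). Model and Blank overlapped for Acta2, and CDs 2 and CDs 3 were the highest of the 9. Actg2 had 435, 422 and 569.6 CPM in Blank, 418, 303 and 270.2 in Model and 238, 722 and 868 in CDs, with a log2 fold change of -0.53 ± 0.41 (SE) and an adjusted p of 0.317 (edgeR). Each Model library of Actg2 was below each Blank library, by a narrow margin in Model 1. Per length, Actg2 stood at 0.889, 0.755 and 0.845 of Acta2 in Blank, 0.591, 0.500 and 0.477 in Model and 0.463, 0.720 and 0.864 in CDs. This ratio was lower in each Model library than in each Blank library, and in CDs it reached from below the Model range into the Blank range.

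Myh11, the smooth muscle myosin heavy chain, had 842, 1031 and 1314 CPM in Blank, 1587, 798 and 1078 in Model and 871, 1936 and 1910 in CDs. The spread within Model, from Model 2 to Model 1, covered the whole range of Blank, and the log2 fold change was 0.12 ± 0.35 (SE). For Mylk, the kinase that switches this myosin on, the values were 325, 364 and 479 CPM in Blank, 516, 417 and 426 in Model and 363, 689.5 and 599 in CDs, and the log2 fold change was 0.22 ± 0.24 (SE). The remaining genes had log2 fold changes of -0.21 for Cnn1 (calponin), -0.61 for Tagln, -0.28 and -0.04 for the tropomyosins Tpm1 and Tpm2, 0.02 for Smtn (smoothelin) and -0.01 for Myl9. Their adjusted p ran from 0.266 for Tagln to 0.974 for Myl9. In the fit without Model 1, Model 3 and CDs 1, which leaves Model 2 alone with its spread taken from Blank and CDs, Actg2, Tagln, Tpm1 and Des were called lower, 4 of 31 against 21.8% of tested genes, and 14 of 31 were called higher against 23.5%.

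**Figure D2:**
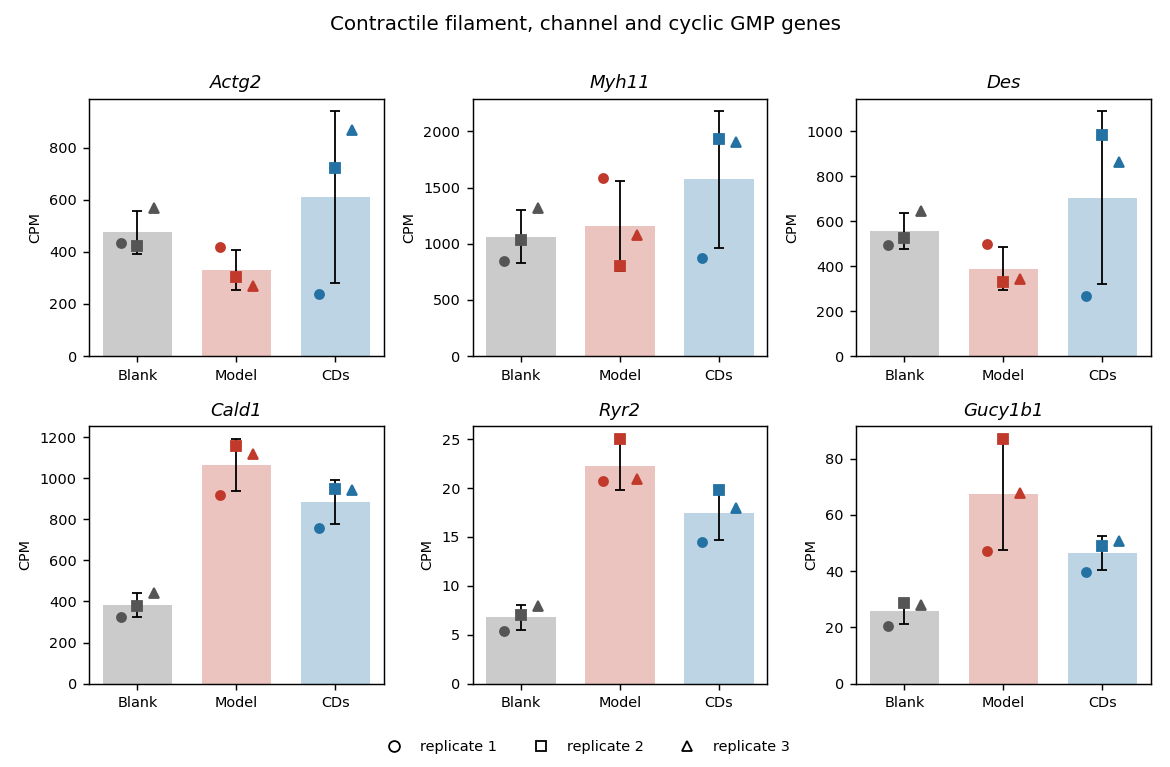
Bars give the mean CPM of 3 libraries, error bars the SD and points the libraries, for 3 genes of the contractile and desmin filaments (upper row) and for Cald1, Ryr2 and Gucy1b1 (lower row), each on a linear axis from 0. In the upper row CDs 1 lies near or below the Model libraries and far below CDs 2 and CDs 3; in the lower row every DSS-treated library lies above every Blank library.

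Of the 6 genes of the intermediate filaments and the membrane attachments 3 rose in Model. Flna, the actin cross-linker filamin A, had 597, 727 and 824 CPM in Blank, 1283, 1311 and 1252 in Model and 1170, 1505 and 1555 in CDs, and its log2 fold change of 0.84 ± 0.17 (SE) had an adjusted p of 0.00465 (edgeR). All 6 DSS-treated libraries were above the 3 Blank libraries for Flna. Pgm5, a structural protein of adherens junctions also called aciculin, rose by 0.67 ± 0.24 (SE) and Vcl (vinculin), which ties actin to the membrane, by 0.41 ± 0.11 (SE), with adjusted p of 0.0482 and 0.0178. Both calls depended on single libraries. Pgm5 was not called without Blank 1, Blank 2, Model 1, Model 2, Model 3 or CDs 2, at adjusted p up to 0.140, and Vcl was not called without Blank 1, Blank 2 or Model 3, at adjusted p up to 0.0634.

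Des, the muscle intermediate filament protein desmin, did not pass the test: it had 495, 527 and 645 CPM in Blank, 498, 328 and 342 in Model and 266, 984 and 863 in CDs, a log2 fold change of -0.51 ± 0.41 (SE). Model 2 and Model 3 were below all Blank libraries for Des, while Model 1 lay just above Blank 1. Synm (synemin, a partner of desmin) and Synpo2 (which binds actin and alpha-actinin at dense bodies) had log2 fold changes of -0.22 and -0.18 with adjusted p of 0.651 and 0.629.

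Genes of calcium and potassium handling rose in 4 of 5 cases. Ryr2 (ENSMUSG00000021313, chromosome 13, 11567988 to 12121831) had 5.40, 7.0 and 7.97 CPM in Blank, 20.7, 25.1 and 20.9 in Model and 14.5, 19.9 and 17.9 in CDs. The lowest DSS-treated value of Ryr2, in CDs 1, was above the highest Blank value, and the rise in Model was 3.28-fold (1.71 ± 0.18 (SE) on the log2 scale, adjusted p = 3.77e-04, edgeR). Cacna1c, the pore of the L-type calcium channel, had 21.7, 29.8 and 28.7 CPM in Blank, 57.4, 86.7 and 70.3 in Model and 58.1, 71.5 and 59.8 in CDs. Its groups were likewise apart, at 2.68-fold in Model (1.42 ± 0.18 (SE), adjusted p = 6.23e-04). Kcnma1 and Kcnmb1, the pore and the smooth muscle subunit of the large-conductance potassium channel that opposes contraction, rose by 0.83 ± 0.17 (SE) and 0.77 ± 0.17 (SE). Pln went the other way in value but was not called. It had 1.86, 2.61 and 4.87 CPM in Blank, 1.16, 1.33 and 1.74 in Model and 1.22, 4.54 and 2.65 in CDs, a log2 fold change of -1.13 ± 0.51 (SE) with an adjusted p of 0.101, from 16 to 76 reads per library.

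All 4 genes of the nitric oxide and cyclic GMP pathway rose. Gucy1b1 and Gucy1a1 encode the 2 subunits of the nitric oxide receptor, soluble guanylate cyclase. Gucy1b1 (ENSMUSG00000028005, chromosome 3, 81939313 to 81981996) had 20.6, 28.5 and 27.8 CPM in Blank, 47.2, 86.9 and 67.8 in Model and 39.7, 49.1 and 50.8 in CDs, a 2.63-fold rise in Model (1.39 ± 0.23 (SE), adjusted p = 0.00177, edgeR), and Model 2 was the highest of the 9. Gucy1a1 rose by 0.93 ± 0.21 (SE) on the same scale, with Model 2 again the highest at 98.2 CPM. Pde5a, the enzyme that breaks down cyclic GMP, was the most abundant of the 4 per length, and had 205, 204 and 232 CPM in Blank, 332, 394 and 353 in Model and 257, 309 and 314 in CDs. Its rise of 0.75 ± 0.13 (SE) had an adjusted p of 0.00207. Prkg1, the cyclic GMP-dependent kinase, had 13.3, 14.7 and 19.5 CPM in Blank, 28.5, 27.5 and 28.7 in Model and 18.7, 29.1 and 33.8 in CDs, and rose by 0.84 ± 0.22 (SE); this call was lost without Blank 1 (adjusted p = 0.0544) and without Blank 2 (0.0534).

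Summed over these 4 genes, the cyclic GMP pathway came to 6.24%, 5.88% and 5.23% of the summed CPM of the 12 thin filament and myosin genes in Blank, 6.99%, 11.7% and 9.76% in Model and 8.38%, 5.07% and 5.40% in CDs. The 5 calcium and potassium genes came to 1.71%, 1.78% and 1.62% in Blank, 2.57%, 3.85% and 3.39% in Model and 3.08%, 1.92% and 1.96% in CDs. Each Model library exceeded each Blank library in both shares. In CDs the first share was above Blank in CDs 1 alone, and the second in all 3 libraries.

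Of the transcription factors, Myocd (myocardin) had 4.82, 6.17 and 7.23 CPM in Blank, 10.4, 12.1 and 13.5 in Model and 8.12, 12.3 and 15.9 in CDs, and rose by 0.98 ± 0.26 (SE) with an adjusted p of 0.0154, a call lost without Blank 1 (adjusted p = 0.0535) or Model 3 (0.0527). Srf had 39.7, 33.3 and 36.6 CPM in Blank, 35.8, 35.6 and 38.3 in Model and 41.8, 44.0 and 43.5 in CDs, a log2 fold change of 0.00 ± 0.09 (SE). The 3 Model values of Srf lay within the range of Blank, and the 3 CDs values were above it. Of the 2 small heat shock proteins, Hspb7 had 12.5, 13.4 and 17.3 CPM in Blank, 27.2, 87.4 and 28.0 in Model and 22.8, 27.0 and 24.7 in CDs. Model 2 was far above the other libraries, and the log2 fold change of 1.73 ± 0.42 (SE) for Hspb7 became 0.94 without it, still called at an adjusted p of 0.00458. Hspb6, a target of the cyclic nucleotide kinases in smooth muscle, had 9.77, 13.9 and 15.6 CPM in Blank, 18.9, 14.0 and 15.8 in Model and 12.3, 24.6 and 17.8 in CDs and was not called (0.31 ± 0.27 (SE)).

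Leaving out 1 library at a time gave between 10 and 15 smooth muscle genes called higher in Model versus Blank. The 10 were found without Blank 1, against 20.6% of tested genes, and the 15 without CDs 1, against 25.8%. Without Blank 2 and Blank 3, the libraries with prostate transcripts, 5 were called higher, against 7.88% of tested genes; only 1 Blank library remains in that fit, and its spread is taken from Model and CDs. These were Cald1, Kcnmb1, Cacna1c, Ryr2 and Gucy1b1. The library left was Blank 1, the lowest Blank library for 26 of the 31 smooth muscle genes. The median log2 fold change of the 31 was 0.49 in that fit, beside 0.31 with all libraries.

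The second comparison, CDs versus Model, asked whether the carbon dots altered these genes under DSS. No member was called, nor was any other gene (0% of tested genes, edgeR, smallest adjusted p 0.891). At an unadjusted p under 0.05 stood 4 of 31 smooth muscle genes, against 5.28% of tested genes (788). These were Gucy1b1 at -0.53 ± 0.22 (SE), Pde5a at -0.29 ± 0.13 (SE), Hspb7 at -0.94 ± 0.41 (SE) and Srf at 0.24 ± 0.09 (SE) on the log2 scale. The groups were apart in the higher direction for Srf, against 3.22% of tested genes, and in the lower direction for Ryr2, Pde5a and Hspb7, against 4.77%. DESeq2 called 51 genes in this comparison, of which 0 were smooth muscle members.

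Log2 fold changes in CDs versus Model were above 0 for 11 of the 12 thin filament and myosin genes, from 0.10 for Lmod1 to 0.88 for Actg2, the exception being Cald1 at -0.27 ± 0.17 (SE). Those of the 4 cyclic GMP genes were below 0, from -0.53 to -0.05. None of these passed the test, and with values such as 0.88 ± 0.41 (SE) for Actg2 and 0.85 ± 0.41 (SE) for Des a missed threshold does not show that the groups were alike. The CDs libraries were far from each other in these genes. In CDs 1 the 12 thin filament and myosin genes summed to 4367 CPM, beside 9126 in CDs 2 and 8862 in CDs 3, 6705, 5181 and 5403 in Model and 4395, 4975 and 6167 in Blank.

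CDs 2 and CDs 3 were both above the other 7 libraries for 11 of these 12 genes, for 5 of 6 attachment genes and for 18 of the 31 in all, against 2.86% of all tested genes. They were so for 0 of 5 calcium and potassium genes and 1 of 4 cyclic GMP genes. Blank 3 was the highest Blank library for 27 of 31 smooth muscle genes (31.4% of tested genes) and Model 1 the highest Model library for 17 of 31 (39.2%), 11 of them among the 12 filament and myosin genes. Blank 1 was the lowest Blank library for 26 of 31, a place not counted over all tested genes. The 31 genes summed to 6413 CPM in Blank 1, 7291 in Blank 2 and 8844 in Blank 3. The share of the muscle layer in each tissue piece was not recorded in the sources used here, and its part in these differences was not tested. In the fit without Model 1, Model 3 and CDs 1, in which Model 2 stands alone, 9 of 31 were called higher in CDs versus Model, against 4.88% of tested genes, and 2 lower, against 3.17%. The 9 were Actg2, Cnn1, Tpm1, Smtn, Myh11, Myl9, Des, Synm and Synpo2, with Des at 1.49 (adjusted p = 0.00662), and the 2 were Gucy1b1 and Hspb7.

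**Figure D3:**
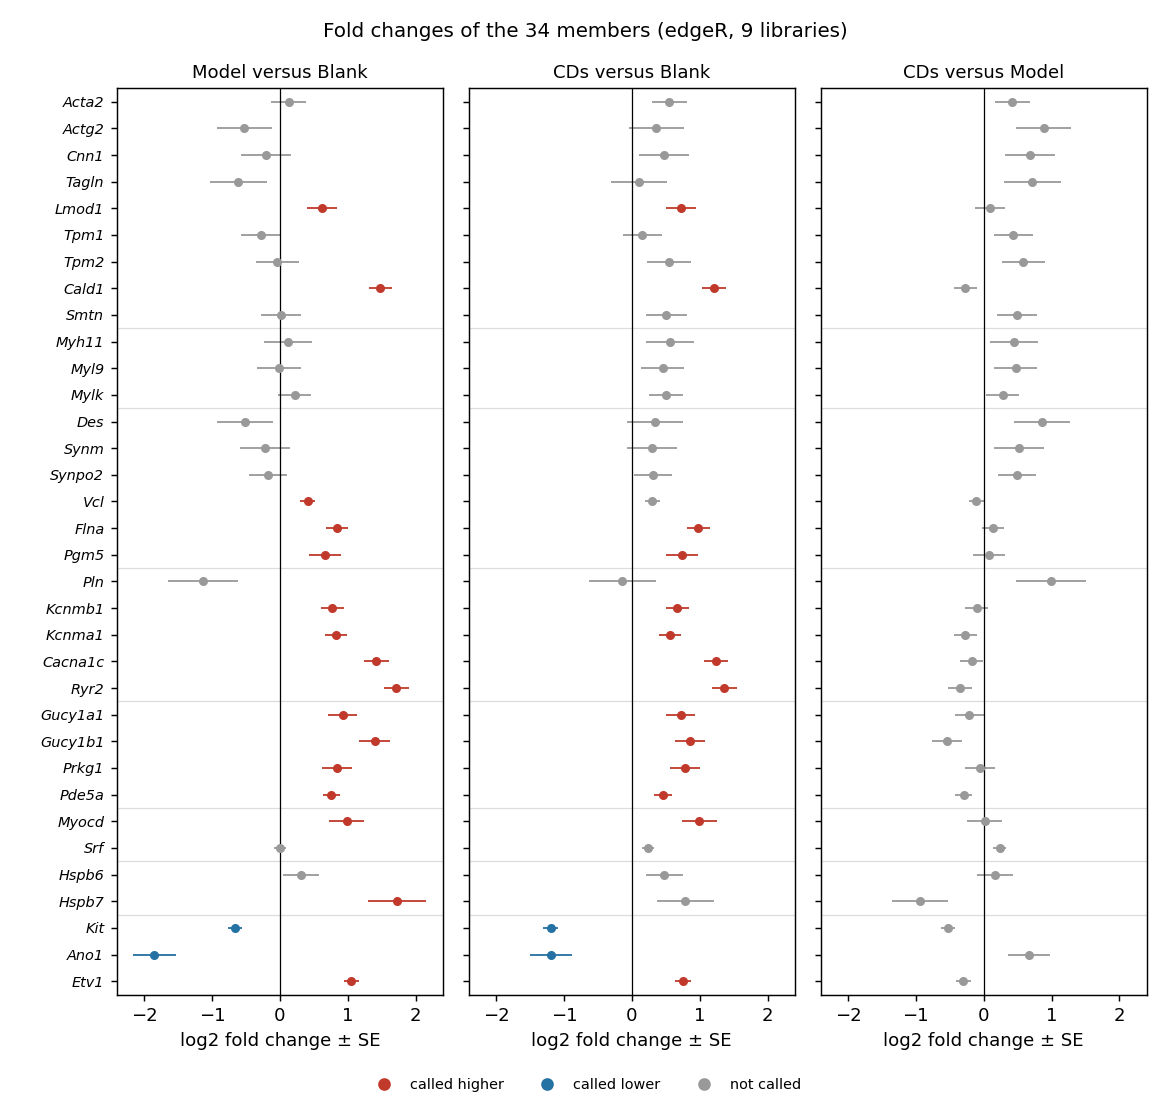
Points give the log2 fold change and bars the standard error of the 34 members in the 3 comparisons (edgeR, 1 fit of 9 libraries); red and blue mark genes called higher and lower at an adjusted p under 0.05, grey those not called. The middle and left panels share red points for channel and cyclic GMP genes, and the right panel, CDs versus Model, holds grey points alone.

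The third comparison, CDs versus Blank, shares its Blank libraries with the first, so the 2 sets of values are given side by side and are not independent. Of the 31 smooth muscle genes 13 rose and 0 fell, against 21.8% and 13.8% of tested genes; the 13 are the 15 of Model versus Blank without Hspb7 and Vcl. The groups were apart in the higher direction for 13 genes and in the lower direction for 0, against 28.2% and 25.9%, but 10 genes were both called and apart. Vcl, Srf and Hspb7 were apart without being called, and Lmod1, Pgm5 and Prkg1 were called although their groups overlapped. Cald1 stood 2.32-fold above Blank in CDs and 2.79-fold in Model, Ryr2 2.57-fold and 3.28-fold, Cacna1c 2.36-fold and 2.68-fold, and Gucy1b1 1.81-fold and 2.63-fold. Flna and Myocd stood 1.97-fold and 1.99-fold above Blank in CDs, beside 1.79-fold and 1.98-fold in Model. Adjusted p in CDs versus Blank were 0.00133 for Cald1, 0.00114 for Ryr2, 0.00148 for Cacna1c, 0.0179 for Gucy1b1, 0.00306 for Flna and 0.0178 for Myocd (edgeR).

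The number called in CDs versus Blank moved with single libraries. Without CDs 1 it was 23 of 31, against 19.3% of tested genes, and the additions were Acta2, Actg2, Cnn1, Tpm2, Smtn, Myl9, Mylk, Des, Synpo2 and Vcl. Acta2 then stood at 0.81 on the log2 scale, beside 0.55 with all libraries, and Des at 0.73, beside 0.34. It was 5 without CDs 2 (16.8% of tested genes), 7 without CDs 3 (19.8%), 4 without Blank 1 (17.5%), where Cald1, Flna, Cacna1c and Ryr2 were left, and 6 without Blank 2 (15.4%). It was 2 without Blank 2 and Blank 3 (2.31%) and 28 without Model 1, Model 3 and CDs 1 (21.4%). The direction of the 13 genes was the same in each of these fits.

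The 3 genes of interstitial cells of Cajal did not move together. In Model versus Blank Kit and Ano1 fell and Etv1 rose, against 19.6% and 24.5% of tested genes called lower and higher. Kit (ENSMUSG00000005672, chromosome 5, 75735576 to 75817382) had 122, 108 and 131 CPM in Blank, 73.1, 80.3 and 74.2 in Model and 48.4, 51.9 and 57.2 in CDs. Every Model library was below every Blank library. Gaps between Model and Blank were common, at 61.0% of tested genes in either direction and 30.0% in the higher direction. Every CDs library was also below every Model library, and in CDs versus Model 4.77% of tested genes were apart in that direction. Kit fell by 0.67 ± 0.10 (SE) on the log2 scale in Model (adjusted p = 0.00144, edgeR).

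Ano1, the calcium-activated chloride channel behind slow waves (ENSMUSG00000031075, chromosome 7, 144142286 to 144305711), had 289, 321 and 256 CPM in Blank, 96.7, 60.1 and 83.3 in Model and 66.9, 164 and 149.5 in CDs. It fell by 1.85 ± 0.32 (SE) in Model, with an adjusted p of 0.00230, and CDs 2 and CDs 3 lay between Model and Blank while CDs 1 lay within the range of Model. Etv1, a transcription factor of these cells (ENSMUSG00000004151, chromosome 12, 38829379 to 38920483), had 22.1, 24.8 and 24.8 CPM in Blank, 46.1, 53.3 and 49.1 in Model and 35.7, 44.0 and 41.1 in CDs. It rose by 1.05 ± 0.11 (SE) with an adjusted p of 3.6e-04, and every DSS-treated library was above every Blank library. Per length, Etv1 came to 12.1%, 15.4% and 12.7% of Kit in Blank, 42.3%, 44.4% and 44.3% in Model and 49.5%, 56.8% and 48.1% in CDs.

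**Figure D4:**
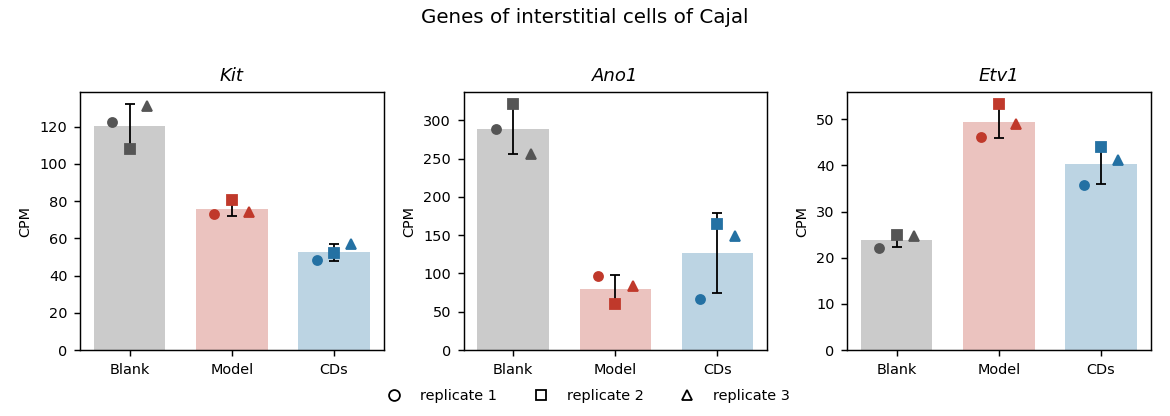
Bars give the mean CPM of 3 libraries, error bars the SD and points the libraries for Kit, Ano1 and Etv1, on linear axes from 0. Kit steps down from Blank to Model to CDs with no overlap, Ano1 is lower and Etv1 higher in both DSS groups than in Blank.

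In CDs versus Blank the calls of the 3 genes were the same, with log2 fold changes of -1.20 ± 0.10 (SE) for Kit, -1.19 ± 0.31 (SE) for Ano1 and 0.75 ± 0.11 (SE) for Etv1. The call of Ano1 there was lost without Blank 2 (adjusted p = 0.0598), and those of Ano1 and Etv1 without Blank 2 and Blank 3. In CDs versus Model Kit stood at -0.53 ± 0.10 (SE), with an unadjusted p of 5.94e-04 and an adjusted p of 0.891, so it was not called; DESeq2 called it lower (adjusted p = 0.00401), as 0.250% of the genes that DESeq2 tested. Ano1 and Etv1 stood at 0.67 ± 0.31 (SE) and -0.30 ± 0.11 (SE) and were not called, at unadjusted p of 0.0601 and 0.0249 (edgeR). The groups overlapped for Ano1, while every CDs library of Etv1 was below every Model library, as for 4.77% of tested genes. Without Model 1, Model 3 and CDs 1, where Model 2 stands alone, Ano1 was called higher in CDs (1.39, adjusted p = 0.00543).

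These 3 genes are also made by other cells. Kit is a marker of mast cells, whose other listed genes summed to 14.9, 20.4 and 6.20 CPM in Blank, 30.6, 62.3 and 43.3 in Model and 60.2, 31.8 and 27.6 in CDs, and so were higher in both DSS groups than in Blank. Ano1 is also made by epithelium, whose listed genes summed to 12240 to 14020 CPM in Blank, 6649 to 11520 in Model and 7279 to 12540 in CDs. Cell types other than mast cells were not set beside Kit, and none was set beside Etv1. The part of other cells in the values of Kit, Ano1 and Etv1 was not tested. Of 12 other genes of the pacemaker layer and of the PDGFRA-positive cells beside it, 8 rose and 0 fell in Model, against 24.5% and 19.6% of all tested genes. Among them were Adora1, an adenosine receptor, at 2.57 ± 0.17 (SE) and Kcnn3, the calcium-activated potassium channel of the PDGFRA-positive cells, at 1.80 ± 0.18 (SE).

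Further genes of the contraction pathway were taken from lists and counted in the same fit of Model versus Blank. Of 16 receptors and G proteins of contraction and genes that act with them, such as Rgs2, 9 rose and 0 fell, against 24.5% and 19.6% of all tested genes. Rgs2 was among the 9. Tacr1, the receptor of substance P, was at 4.13 ± 1.29 CPM in Blank, 39.9 ± 7.37 in Model and 28.1 ± 2.04 in CDs (SD, n = 3), a log2 fold change of 3.28 ± 0.24 (SE) in Model. The endothelin receptors Ednra and Ednrb rose by 2.46 ± 0.18 (SE) and 2.69 ± 0.26 (SE). In CDs versus Blank 8 of the 16 rose and 1, Gna11, fell, against 21.8% and 13.8%.

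Of 16 genes of calcium entry, store and release 8 rose and 1, Atp2b1, fell in Model, where 24.5% of all tested genes were called higher and 19.6% lower. Cacna2d1, an auxiliary subunit of the calcium channel, rose by 1.93 ± 0.22 (SE), Cacna1h, a T-type calcium channel, by 0.82 ± 0.10 (SE), and Atp2a2, the store pump that phospholamban restrains, by 0.66 ± 0.10 (SE). Of 15 tested partners of cyclic nucleotide relaxation 10 rose and 0 fell, among them Pde1a, a calmodulin-dependent phosphodiesterase, at 2.58 ± 0.18 (SE) and Abcc9, the sulfonylurea receptor of ATP-sensitive potassium channels, at 2.85 ± 0.27 (SE). Abcc9 is also in the pericyte list below. Ednrb and Kcnn3 are also in the pacemaker layer list above, and Pdgfra is in that list and in the fibroblast list. Of 13 genes that set the calcium sensitivity of myosin, such as RhoA, its kinases and the myosin phosphatase, Arhgef12, an activator of RhoA, rose (0.47 ± 0.10 (SE)) and Prkca, a protein kinase C, fell (-0.77 ± 0.20 (SE)), 1 of 13 in each direction and so below both of those shares.

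Of 29 tested genes of dense bodies, sarcoglycans and caveolae 13 rose and 2, Ldb3 and Csrp2, fell, beside 24.5% and 19.6% of all tested genes for this and the next 2 lists. Sgcb, a sarcoglycan, rose by 1.44 ± 0.18 (SE) and Tln1 (talin), the partner of vinculin, by 0.81 ± 0.11 (SE), and Csrp2, a LIM protein of smooth muscle, fell by 1.38 ± 0.17 (SE). Of 14 tested cofactors of serum response factor and regulators of smooth muscle 8 rose and 4 fell. Foxf1, a mesenchymal transcription factor of the gut, rose by 1.23 ± 0.18 (SE), and Klf4, which represses contractile genes and is abundant in colon epithelium, fell by 1.19 ± 0.38 (SE). Of 13 non-muscle filament genes 7 rose and 1 fell, with the non-muscle myosin Myh10 at 1.22 ± 0.19 (SE) and Vim (vimentin) at 1.28 ± 0.24 (SE). In CDs versus Model 0 genes of these lists were called.

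Genes of other cell types moved in the same comparison. In Model versus Blank 13 of 13 fibroblast genes, 7 of 9 pericyte genes, 9 of 10 endothelial genes and 14 of 15 enteric neuron and glia genes rose, against 24.5% of all tested genes. Fibroblast genes summed to 2404 to 2727 CPM in Blank, 6311 to 13450 in Model and 6752 to 7796 in CDs, and pericyte genes to 390 to 528 CPM in Blank, 963 to 1583 in Model and 853 to 1040 in CDs. Cald1, Flna, Vcl, Cacna1c, Gucy1a1, Gucy1b1, Prkg1 and Pde5a are also made in 1 or more of these cell types. The 31 smooth muscle genes together, which include these, summed to 6413 to 8844 CPM in Blank, 8375 to 9962 in Model and 6860 to 13340 in CDs. Their mean sum was 7516 CPM in Blank and 8909 in Model. Within it Cald1 averaged 382 and 1066 CPM and Flna 716 and 1282 CPM. Skeletal muscle genes summed to 33.0 to 90.4 CPM over the 9 libraries, and its myosin Myh4 was at 0 in each. The part of these cells in the rise of the channel and cyclic GMP genes was not tested.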

How the data were processed

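Poly-A RNA of mouse colon was sequenced in 9 libraries, 3 in each of the groups Blank, Model and CDs, which come from the sample titles. Per the submitters' processing notes, the tools were HTSeq 0.9.1, HISAT2 2.1.0 and fastp 0.22.0. The genome build and strandedness were not given in the sources used here. The authors' table holds, per the file headers, raw read counts and FPKM of every gene. The deposited FPKM equalled the count divided by gene length and library total in 100% of values (relative tolerance 1e-06), so it adds only the length scaling. Total counts of 13868864 to 19940300 limit the precision of low genes, and the 3-read limit covers counting error only. The table held 0 sample columns that could not be matched.

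Deposited counts were tested with edgeR 4.0.16 (R 4.3.3, quasi-likelihood test, expression filter, TMM scaling, two-sided) in 1 fit of 9 libraries with 1 coefficient per group and p-values adjusted over 14921 genes. The SE is the log2 fold change over the root of F. CPM are deposited counts scaled to TMM library sizes. The test was also run on simulated counts in which 50 genes were changed at each fold, few beside those called in Model versus Blank. Of genes changed 1.5-fold it called 6% in Model versus Blank, 0% in CDs versus Model and 4% in CDs versus Blank. Of those changed 2-fold it called 38%, 54% and 50%, in the same order. Smaller changes were therefore mostly missed there. Members were grouped by role. Members and lists were chosen with earlier results of these data known. All 34 members are named, and of each other list the genes with the smallest p, as a rule up to 3 in Model versus Blank and 2 in CDs versus Model; genes called lower, and all other genes named, were chosen after their values were seen. Lists can share genes. Alternatives were DESeq2 1.42.0, RLE, upper quartile or no composition scaling, no filter, the replicate number as a block, 6-library fits, limma 3.58.1 on log2(FPKM + 1), each library left out in turn, and fits without the libraries that hold prostate or pancreatic transcripts. Replicate numbers did not pair the libraries (correlation of same-numbered deviations from -0.366 to 0.207, 3 of 9 over 0.1), so the block is an alternative. P-values weigh a difference between group means against the spread between these libraries. Promoter windows are from RefSeq and were searched on both strands.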

Additional observations from a re-analysis of the deposited data

How the results depend on the processing

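Depth limits the members with the fewest reads, Pln and Tagln, at 16 to 102 reads per library. Leaving out 1 library at a time gave 4405 to 7459 genes called in Model versus Blank and 3398 to 5540 in CDs versus Blank, 10 to 15 and 4 to 23 smooth muscle genes called higher, and 1 to 2 interstitial cell of Cajal genes called lower in CDs versus Blank. The lowest of these smooth muscle counts were without Blank 1 and the highest without CDs 1. Of tested genes 20.6% and 25.8% were called higher in those fits in Model versus Blank, and 17.5% and 19.3% in CDs versus Blank. The 1 interstitial cell of Cajal gene was without Blank 2, against 7.11% of tested genes called lower. In CDs versus Model leaving out 1 library gave 0 calls (edgeR). With the replicate number as a block, 14 smooth muscle genes were called higher in Model versus Blank, against 23.2% of tested genes. In CDs versus Blank 12 were, against 19.9%, and Lmod1 was lost in both. In all 5672 and 4475 genes were called with the block, and 0 in CDs versus Model. Of the 9 libraries 4 correlated best with their own number.

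DESeq2 called 51 genes in CDs versus Model, of which 1 was an interstitial cell of Cajal gene, lower, against 0.250% of the genes that DESeq2 tested. Without Blank 2 and Blank 3, which leaves 1 Blank library, 1536 genes were called in Model versus Blank and 465 in CDs versus Blank, smooth muscle genes called higher numbered 5 and 2, and in CDs versus Blank 0 interstitial cell of Cajal genes were called higher and 1 lower. Without Model 1, Model 3 and CDs 1, 1241 genes were called in CDs versus Model, 9 smooth muscle genes were higher and 2 lower and 1 interstitial cell of Cajal gene was higher; 4 smooth muscle genes were called lower in Model versus Blank and 28 higher in CDs versus Blank. Fewer libraries are compared in these fits; other causes were not tested.

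Signs reversed for uncalled values near 0. In Model versus Blank Myl9 stood at 0.001 with RLE, 0.032 with library totals, 0.03 with the replicate block, 0.034 with limma and 0.27 without Blank 2 and Blank 3, and Tpm2 at 0.014, 0.014 and 0.025 with totals, block and limma and 0.29 without Blank 2 and Blank 3. Without those libraries Cnn1 stood at 0.001, Synm at 0.10, Synpo2 at 0.072 and Srf at -0.12 there, and Pln at 0.59 in CDs versus Blank. Without Model 1, Model 3 and CDs 1, Smtn stood at -0.19, Myh11 at -0.42 and Srf at -0.042 in Model versus Blank, Vcl at 0.04, Kcnmb1 at 0.033 and Prkg1 at 0.19 in CDs versus Model, and Pln at 0.22 in CDs versus Blank. Myocd in CDs versus Model stood at -0.021 with DESeq2, -0.021 with RLE, -0.024 with the block and -0.002 with upper quartile scaling. Over the fits without 1 library, Smtn ran from -0.14 to 0.16, Myh11 from -0.18 to 0.33, Srf from -0.055 to 0.075, Tpm2 from -0.19 to 0.14 and Myl9 from -0.21 to 0.15 in Model versus Blank, Pln from -0.69 to 0.33, Tagln from -0.10 to 0.44 and Tpm1 from -0.027 to 0.44 in CDs versus Blank, and Myocd from -0.23 to 0.23, Pgm5 from -0.055 to 0.31, Kcnmb1 from -0.18 to 0.037, Prkg1 from -0.24 to 0.16, Lmod1 from -0.11 to 0.33 and Hspb6 from -0.11 to 0.39 in CDs versus Model. The cause was not tested.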
